A study of Oryza sativa with 8 samples.

Results

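Genes that shape the rice panicle, 10 in number, were looked up in a table of messenger RNA levels from plants with lowered RNA polymerase IV. The genes were fixed by identifier: LAX1, LAX2, FZP, TAW1, APO1, APO2, SPL14, CKX2, DEP1 and OSH1. Of the 10 listed identifiers, 4 were found as names among the 30154 names of the table, those of DEP1, SPL14, APO1 and CKX2. For LAX2 and OSH1, rows carrying the gene symbol in place of the identifier were found, and these 2 genes are described beside the 4. The other 4 genes, LAX1, FZP, TAW1 and APO2, are not analysed here.

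The samples were nrpd1_kd panicle, WT panicle, nrpd1_kd anther and WT anther, all from the indica cultivar Pusa Basmati 1 (PB1). In nrpd1_kd plants the level of NRPD1 was lowered, the catalytic subunit of RNA polymerase IV, a plant polymerase whose transcripts are turned into small RNAs that guide DNA methylation. The labels do not give the knockdown construct, its promoter, the number of lines or the age of the plants. Panicles were taken before emergence and anthers before they opened, and the labels list 8 libraries, 2 in each of the 4 groups. The deposited table holds 1 FPKM value per gene and group (fragments scaled to transcript length and to the mapped total), so no difference given here can be set against the spread between replicates, and no test was possible. The NRPD1 genes are not analysed here, and whether their level was lower in nrpd1_kd was therefore not checked. A panicle is a mixture of tissues that includes anthers, and in such bulk samples fewer cells of a type and less RNA per cell cannot be told apart.

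The rice panicle is built by a succession of meristems. The inflorescence meristem makes branch meristems, these make further branches, and each finally becomes a spikelet meristem that forms a grain-bearing flower. Grain number depends on how long branching goes on before meristems turn into spikelets, and on the cytokinin that keeps meristems active. LAX1 (a basic helix-loop-helix factor) and LAX2 (a nuclear protein that binds LAX1) are needed to start axillary meristems. APO1 (an F-box protein), APO2 (the rice counterpart of Arabidopsis LEAFY) and TAW1 (an ALOG protein) delay the change to spikelets, while FZP (an ERF factor) secures spikelet identity. OSH1 is a KNOTTED1-type homeobox factor that maintains meristems. CKX2 degrades cytokinin, SPL14 is an SBP-box factor that promotes panicle branching, and DEP1 is a gamma subunit of heterotrimeric G proteins whose altered forms give dense, erect panicles.

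Of the 4 genes found by identifier, 2 reached 1 FPKM and could be compared, DEP1 and SPL14. Of these, only DEP1 differed between nrpd1_kd and WT by the size counted here, and it was higher in nrpd1_kd in both tissues. SPL14 was present in all 4 columns, between 2.36 and 3.20 FPKM. APO1 and CKX2 were at or near 0 throughout. Of the 2 genes found by symbol, OSH1 was lower in nrpd1_kd anther than in WT anther, and LAX2 was weakly detected in every column.

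**Figure D1:**
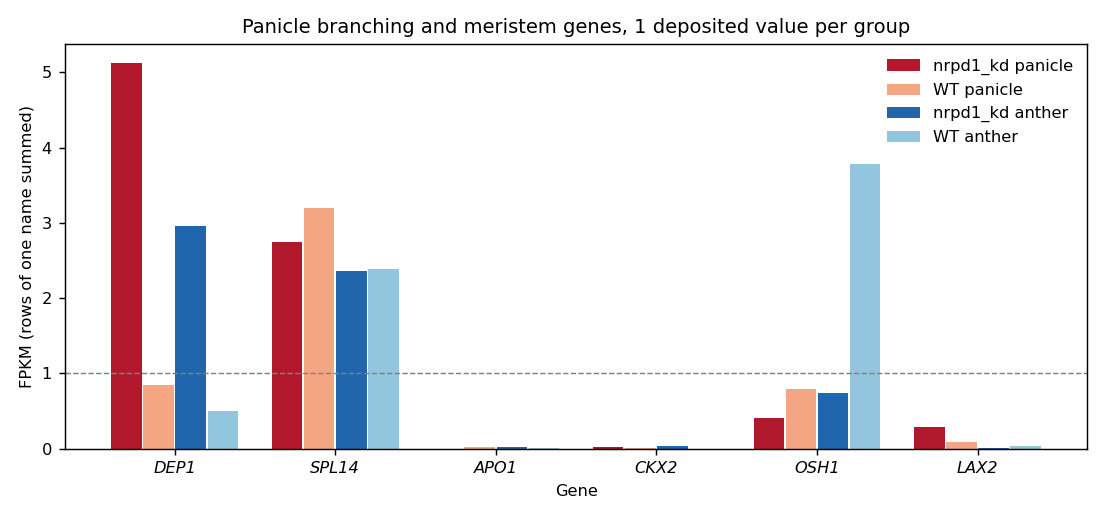
FPKM of the 6 genes (vertical axis, rows of one name summed) in nrpd1_kd panicle, WT panicle, nrpd1_kd anther and WT anther, 1 deposited value per bar and no error. DEP1 stands at 5.12 and 2.96 FPKM in the nrpd1_kd columns and under the dashed line at 1 FPKM in both WT columns, while APO1 and CKX2 are not visible above 0.

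DEP1 (Os09g0441900; chromosome 9, 16411147 to 16415865, build not stated) was listed at 5.12 FPKM in nrpd1_kd panicle, against 0.846 FPKM in WT panicle. In anther it was listed at 2.96 FPKM in nrpd1_kd, against 0.508 FPKM in WT. Both nrpd1_kd values thus stood above both WT values, and the order from high to low was nrpd1_kd panicle, nrpd1_kd anther, WT panicle, WT anther. With no replicate values, it cannot be said which neighbours in that order differ beyond their spread.

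Differences were taken on the log2(FPKM + 1) scale, where weak genes show less than their true ratio. Names with 1 FPKM or more in at least 1 of the columns were compared, and those that differed by 1 or more were counted as higher or lower. The difference for DEP1 was 1.73 in panicle and 1.39 in anther, and the plain ratio of nrpd1_kd to WT was 6.05 in panicle and 5.83 in anther. In panicle, DEP1 was the 1 higher gene of the 2 members compared, and 13.2% of all 18655 names compared were higher. In anther it was again 1 of 2 compared, where 7.37% of all 17943 names were higher. DEP1 was under 1 FPKM in both WT columns, so it was compared only through its nrpd1_kd values. It could therefore not have been counted as lower in either tissue. A difference at least as high as that of DEP1 was found for 5.61% of names in panicle and for 3.44% in anther. Of the 16276 names compared in both tissues, 336 (2.06%) were higher in both.

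DEP1 was counted as higher in both tissues under each scaling of the columns that was tried. The anther columns differ in composition, and making their FPKM totals equal moved the median of all names compared from -0.15 to 0.60. That scaling turned the anther split from 29.5% to 79.7% of counted names higher. Relative to the median of all names, the difference for DEP1 in anther was 1.55 as deposited, 1.35 with quantile normalization and 1.25 with equal totals. In panicle it was 1.76 as deposited and 1.84 with either scaling, and 1.65 after WT panicle had a share of WT anther values taken off. Between tissues, DEP1 differed by 0.63 in nrpd1_kd (panicle minus anther), where 36.5% of all names compared passed the threshold in either direction. In WT both tissues were under 1 FPKM, at 0.846 in panicle and 0.508 in anther, so the gene was not compared there. The knockdown difference of DEP1 in panicle exceeded that in anther by 0.33, where 32% of all names differed between tissues by 1 or more. This excess was 0.13 with a pseudocount of 0.1 and turned to -0.17 with equal FPKM totals, so its direction is not settled.

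**Figure D2:**
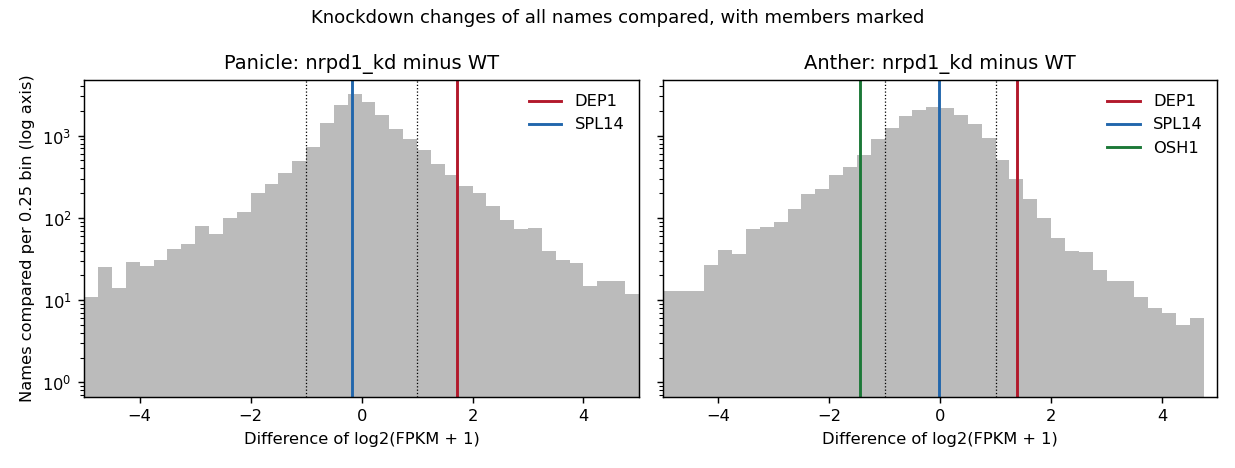
Histograms of the nrpd1_kd minus WT difference of log2(FPKM + 1) over all names compared in panicle (left) and anther (right), with a log vertical axis and dotted lines at -1 and 1. DEP1 lies at 1.73 in panicle and 1.39 in anther, SPL14 at -0.17 and -0.01, and OSH1, compared in anther only, at -1.45. The few names beyond 5 in either direction are outside the plotted range.

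SPL14 (Os08g0509600; chromosome 8, 25269897 to 25281527) was listed at 2.74 FPKM in nrpd1_kd panicle and 3.20 FPKM in WT panicle. In anther it was listed at 2.36 FPKM in nrpd1_kd and 2.39 FPKM in WT. The knockdown difference was -0.17 in panicle and -0.01 in anther, both under the threshold. The panicle minus anther difference was 0.16 in nrpd1_kd and 0.31 in WT. With equal FPKM totals the knockdown difference in anther became 0.61, and the difference between tissues became -0.08 in nrpd1_kd and 0.83 in WT, all still under the threshold.

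These sums hid a division between rows. The table has 2 rows named SPL14 (Os08g0509600), at the same locus. The first row was at 1.47 FPKM in nrpd1_kd panicle, 2.35 in WT panicle, 2.13 in nrpd1_kd anther and 2.33 in WT anther. The second row was at 1.27 FPKM in nrpd1_kd panicle, 0.854 in WT panicle, 0.231 in nrpd1_kd anther and 0.0619 in WT anther. The second row was therefore lowest in WT anther and highest in nrpd1_kd panicle, while the first row was lowest in nrpd1_kd panicle. Its knockdown difference in panicle was 0.29, against -0.44 for the first row, neither of them past the threshold. Another row at the locus, named Os08g0509500, lay between 0.217 and 0.515 FPKM.

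Such a balance between rows was uncommon in nrpd1_kd panicle. Among the 10954 names with 2 rows and at least 1 FPKM in the stronger one there, the median level of the fainter row was 2.29% of the stronger one (quartiles 1.44% and 3.58%). For SPL14 it had 86.8%, a value reached by 0.237% of those names. In WT panicle the SPL14 share was 36.3%, in nrpd1_kd anther 10.9% and in WT anther 2.66%. Shares at least as high were found for 1.46% of such names in WT panicle, 4.08% in nrpd1_kd anther and 41.8% in WT anther. A high share was thus uncommon in WT panicle as well. For DEP1 the fainter row had 0.857% of the stronger in nrpd1_kd panicle and 1.26% in nrpd1_kd anther, so the DEP1 values rest on 1 row. The libraries were made with a strand-keeping kit, but the table gives neither the strand nor the transcript of a row, so what the 2 rows of a name stand for is not known.

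**Figure D3:**
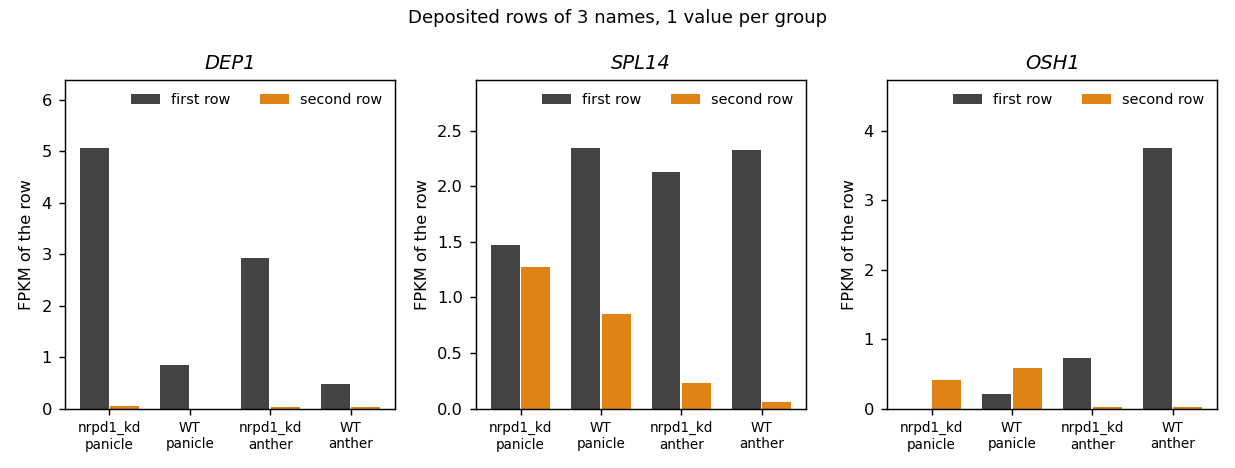
FPKM of each deposited row (vertical axis, separate scales) for the names of DEP1, SPL14 and OSH1 in nrpd1_kd panicle, WT panicle, nrpd1_kd anther and WT anther. The first DEP1 row holds nearly all of its signal, the second SPL14 row is at 1.27 FPKM in nrpd1_kd panicle and 0.0619 FPKM in WT anther, and the 2 OSH1 rows are high in different tissues.

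OSH1 (chromosome 3, 29595886 to 29606861) was listed, with its rows summed, at 0.409 FPKM in nrpd1_kd panicle and 0.788 FPKM in WT panicle. In anther it was at 0.747 FPKM in nrpd1_kd and 3.78 FPKM in WT. The sum was thus highest in WT anther, and the other 3 columns stayed under 1 FPKM. The anther difference between nrpd1_kd and WT was -1.45, where 17.6% of all names compared were lower. Between tissues in WT, panicle minus anther, the difference was -1.42, where 20.4% of names were lower. That comparison shares its WT anther value with the previous one. Only that value reached 1 FPKM, so OSH1 could not have been counted as higher in either comparison. Equal FPKM totals moved the median of all names in it to 0.54 and the share of counted names that were higher in panicle to 73.9%, against 47.1% as deposited. With FPKM totals made equal, both OSH1 differences came under the threshold, at -0.89 and -0.93, where the medians of all names were 0.60 and 0.54. Relative to those medians they were -1.48 and -1.46, against -1.30 and -1.35 as deposited. In panicle OSH1 was under 1 FPKM in both columns and was not compared.

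The 2 OSH1 rows had opposite patterns between tissues, though each was listed lower in nrpd1_kd than in WT in both tissues. The first row was at 0 in nrpd1_kd panicle, 0.207 FPKM in WT panicle, 0.731 FPKM in nrpd1_kd anther and 3.76 FPKM in WT anther. The second row was at 0.409 FPKM in nrpd1_kd panicle, 0.580 FPKM in WT panicle, 0.0161 FPKM in nrpd1_kd anther and 0.0231 FPKM in WT anther. The summed anther value, and the differences that rest on it, came from the first row, whereas the second row was higher in both panicle columns than in both anther columns. In WT panicle the first row had 5.51% of its WT anther level. Over 180 names abundant in WT anther and at least 100 times lower in nrpd1_kd panicle, a set chosen on these values, that percentage had a median of 7.33% with quartiles of 6.44% and 8.51%. The part of anther RNA in the WT panicle value of OSH1 was not tested.

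APO1 (Os06g0665400; chromosome 6, 27480081 to 27481453) was listed at 0 in nrpd1_kd panicle and at 0.0210 FPKM in WT panicle. In anther APO1 was at 0.0195 FPKM in nrpd1_kd and 0.0124 FPKM in WT. CKX2 (Os01g0197700; chromosome 1, 5270246 to 5275585) was at 0.0183 FPKM in nrpd1_kd panicle and 0.0170 FPKM in WT panicle. In anther CKX2 was at 0.0430 FPKM in nrpd1_kd and listed at 0 in WT. Neither gene came near 1 FPKM in any column, so neither was compared and no fold is given.

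LAX2 (chromosome 4, 19563841 to 19576560) was at 0.284 FPKM in nrpd1_kd panicle and 0.0839 FPKM in WT panicle. In anther LAX2 was at 0.0135 FPKM in nrpd1_kd and 0.0389 FPKM in WT. The panicle values were above the anther values, but all lay under 1 FPKM. The table places 2 rows of another name, Os04g0396550, at the same coordinates. The stronger of them was at 7.06 FPKM in nrpd1_kd panicle and 3.85 FPKM in WT panicle. In anther it was at 0.542 FPKM in nrpd1_kd and 0.301 FPKM in WT. The higher FPKM at these coordinates was thus listed under Os04g0396550 in every column. FPKM is scaled to transcript length, so how reads were divided between the 2 names is not known. The relation of Os04g0396550 to LAX2 is not given.

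APO1, CKX2 and LAX2 each had a single row. Among the 14941 unjoined names with 1 row, the median level in WT panicle was 0.265 FPKM and 29.7% reached 1 FPKM. Among the 13548 names with 2 rows, the stronger row had a median of 6.51 FPKM and the fainter row one of 0.166 FPKM in the same column. Low values were thus common for names with 1 row. The number of reads behind an FPKM value is not in the table, so no detection limit can be given for these genes.

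Patterns over the 4 columns were compared as distances between log2(FPKM + 1) profiles, each centred on its own mean, over 14124 other names with at least 5 FPKM in some column. Nearest to DEP1 was Os04g0514150 at a distance of 0.15, with 10.2 FPKM in nrpd1_kd panicle, 1.95 in WT panicle, 5.85 in nrpd1_kd anther and 1.50 in WT anther. Nearest to SPL14 was Os06g0583501 at 0.0129, which lay between 19.9 and 25.4 FPKM. Nearest to the OSH1 sum was the joined row Os03g0245100,Os03g0245200 at 0.0942, with 26.9 FPKM in WT anther and at most 9.83 FPKM elsewhere. For the median profile of DEP1 and SPL14 the nearest names were Os08g0120200, Os09g0115600 and Os08g0206466, at 0.0374, 0.0836 and 0.0904. Distances over 4 values describe likeness in these columns only.

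A further list of 44 identifiers of panicle and meristem genes was described in the same way. They were placed from general knowledge in groups for cytokinin turnover and its regulation, KNOX homeobox factors, SPL factors, G protein subunits, meristem and branching regulators, and the ERECTA and MAP kinase pathway. The table does not annotate the identifiers, so they are given without gene names. Of the 44, 41 were found, 2 of them (MOC1 and SPL13) by symbol. In panicle 23 were compared, of which 2 were higher and 5 lower in nrpd1_kd, against 13.2% higher and 10.7% lower among all names. In anther 20 were compared, of which 1 was higher and 3 lower, against 7.37% and 17.6%. With equal FPKM totals the anther counts became 7 higher and 1 lower. That scaling moved all names as well. Of the 17943 names compared in anther, 5098 were then higher and 1296 lower, against 1323 and 3164 as deposited. The median difference of the names compared was 0.20 in panicle and -0.39 in anther, beside medians of -0.03 and -0.15 over all names.

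The cytokinin group held 4 of the 5 lower names in panicle, out of 7 compared, where 10.7% of all names were lower. Among the 4, Os05g0374200, came under the threshold when the WT anther share was subtracted from WT panicle, at -0.92 against -1.31 as deposited. The largest differences there were those of Os08g0460600, whose reads partly sit in a row joined with a neighbour, and Os01g0940000. Os08g0460600 was at 4.20 FPKM in nrpd1_kd panicle and 15.2 FPKM in WT panicle, a difference of -1.64. Os01g0940000 was at 0.161 FPKM in nrpd1_kd panicle and 2.01 FPKM in WT panicle, a difference of -1.38. The 3 compared names not counted in panicle differed by 0.92 (Os10g0483500), 0.58 (Os01g0775400) and -0.45 (Os03g0786400, partly in a joined row). With a pseudocount of 0.1, Os10g0483500 was counted as higher in panicle, at 1.64. The group was not divided by what its genes do. In anther the group had 1 higher and 1 lower name of 8, where 7.37% of all names were higher and 17.6% lower. Os01g0775400 was at 14.6 FPKM in nrpd1_kd anther and 2.37 FPKM in WT anther, a difference of 2.21. Os05g0374200 was at 3.51 FPKM in nrpd1_kd anther and 14.7 FPKM in WT anther, a difference of -1.80.

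Among the SPL group, only Os08g0531600 reached 1 FPKM in panicle, at 18.8 FPKM in nrpd1_kd and 3.41 FPKM in WT, a difference of 2.17. SPL13 stayed under 1 FPKM, at 0.820 FPKM in nrpd1_kd panicle and 0.0716 FPKM in WT panicle. The other 3 SPL identifiers, the highest of them Os09g0491532 at 0.677 FPKM in nrpd1_kd panicle, were under 1 FPKM as well. In the meristem and branching group, Os07g0616000 was at 33.7 FPKM in nrpd1_kd panicle and 12.7 FPKM in WT panicle, a difference of 1.34. In anther the joined row Os04g0411100,Os04g0411400 was at 2.57 FPKM in nrpd1_kd and 9.13 FPKM in WT, a difference of -1.50 that became -0.76 with equal FPKM totals. MOC1, a GRAS factor needed for axillary meristems, was at 0.867 FPKM in nrpd1_kd panicle and 0.558 FPKM in WT panicle. None of the G protein identifiers, the family to which DEP1 belongs, passed the threshold, with 3 compared in panicle and 2 in anther. Among all names, 13.2% were higher and 10.7% lower in panicle, and 7.37% higher and 17.6% lower in anther. With so few compared, no contrast with DEP1 can be drawn.

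**Figure D4:**
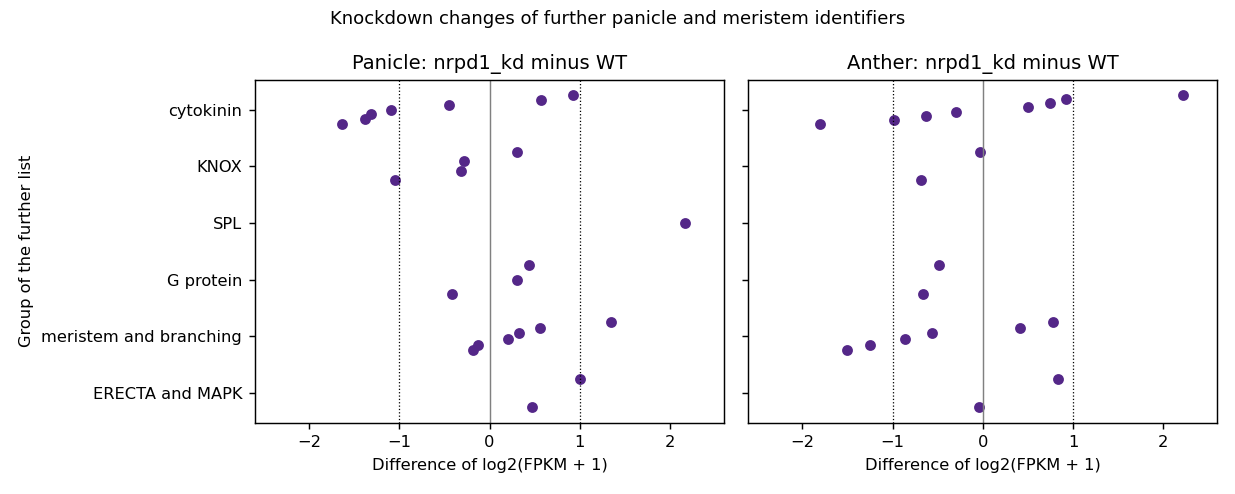
Difference of log2(FPKM + 1), nrpd1_kd minus WT, for each compared identifier of the further list (1 point each, grouped down the page) in panicle (left) and anther (right), on the deposited scale, with dotted lines at -1 and 1. In panicle 4 cytokinin points lie below -1 and 1 SPL point lies at 2.17, and the G protein points lie between the dotted lines in both tissues.

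Between tissues, the summed FPKM of the KNOX group, the family of OSH1, was 19.2 in nrpd1_kd panicle and 3.34 in nrpd1_kd anther, and 34.0 in WT panicle and 4.64 in WT anther. Of its 4 compared members, 2 were higher in WT panicle than in WT anther and 0 were lower, where 18.1% of all names were higher. These 2, Os01g0302500 and Os07g0129700, were under 1 FPKM in WT anther and could not have been counted as lower. Most of the WT panicle sum came from Os07g0129700, which had 26.7 FPKM there, against 0.0440 FPKM in WT anther. In nrpd1_kd panicle Os07g0129700 was at 12.4 FPKM, a knockdown difference of -1.05. It was the 1 lower name of 4 KNOX names compared between nrpd1_kd and WT panicle, where 10.7% of all names were lower.

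Genes of other cell types moved with the panicle comparison. Of 12 identifiers listed for the tapetum (the nurse layer of the anther), 11 were compared in panicle and 8 were higher in nrpd1_kd and 0 lower, where 13.2% of all names were higher. Of the 12, 11 reached 1 FPKM in nrpd1_kd panicle, but only 5 did in WT panicle. Names that reached it in nrpd1_kd panicle alone could not have been counted as lower, so the split of higher and lower was partly fixed by the filter. Their summed FPKM was 1478 in nrpd1_kd panicle and 58.1 in WT panicle, and 1250 of the nrpd1_kd sum came from Os11g0582500. Without that name the sums over the other 11 were 228 FPKM in nrpd1_kd panicle and 55.6 FPKM in WT panicle. In WT panicle 2 of the 12 were at 0, and in nrpd1_kd panicle none was. Of 3 identifiers listed for late pollen, all 3 were lower in nrpd1_kd panicle, where 10.7% of all names were lower. Their sums were 3.15 FPKM there and 12.3 FPKM in WT panicle. In anther 7 of the 12 tapetum identifiers were compared, of which 2 were higher in nrpd1_kd and 0 lower. Among all names compared in anther, 7.37% were higher and 17.6% lower. The median difference of the 7 was -0.03, beside -0.15 over all names. The sum over all 12 was 467 FPKM in nrpd1_kd anther and 157 FPKM in WT anther, but without Os11g0582500 it was 140.0 FPKM in nrpd1_kd anther and 149 FPKM in WT anther. Of the late pollen identifiers, 2 were lower in nrpd1_kd anther and 1 was higher, where 17.6% of all names were lower and 7.37% higher. Their sums were 20.3 FPKM in nrpd1_kd anther and 66.2 FPKM in WT anther. The higher identifier, Os06g0217300, was at 10.1 FPKM in nrpd1_kd anther and 3.51 FPKM in WT anther. In WT panicle it was at 6.85 FPKM, above its WT anther value. By contrast, Os08g0494100 had 43.1 FPKM in WT anther and 3.52 in WT panicle, and Os11g0658700 had 19.6 and 1.88. The WT values of Os06g0217300 thus do not bear out its place in the late pollen list, and the late pollen counts and sums include it. The part that these cell types have in the DEP1, SPL14 and OSH1 values was not tested.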

How the data were processed

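Messenger RNA was measured by strand-keeping RNA sequencing. FPKM values, 1 per group, were deposited by the authors, per the file headers. The submitters' processing notes name Trimmomatic, HISAT2 and Cufflinks 2.2.1. Genome build, annotation and how the 2 replicates were combined are not given in the sources used here. The depth is unknown: among 126 rows under 0.02 FPKM in both panicle columns the commonest ratio was shared by 8, and among 389 in anther by 17, so whole reads were not recovered. No column belonged to another series.

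Rows of one name were summed (43897 rows, 30154 names), log2(FPKM + 1) was compared as described, and names were counted at a difference of at least 1. No model was fitted, as there is 1 column per group. The members and lists were chosen with earlier results of these data known. The genes named are all members found and, of the further list, the 2 largest rises and 2 largest falls past the threshold in each knockdown comparison. Other names were chosen after their values were seen. Alternatives are given in the closing section. Python 3.11.15, numpy 2.4.6, pandas 2.3.3 and matplotlib 3.10.9 were used, and the counting step was tested on simulated data.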

Additional observations from a re-analysis of the deposited data

How the results depend on the processing

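No paired analysis was possible because replicates share 1 deposited column, and for that reason libraries could not be left out in turn. Of the recomputed counts of members past the threshold, 48 equalled the reported count and 7 did not. Some of the 48 could not have differed. A threshold of 2 cannot raise a count of 0, and subtracting the WT anther share alters only comparisons that use WT panicle. A mean of at least 5 FPKM left no member to compare (0 in panicle and 0 in anther), and a threshold of 2 also gave 0 in each, since DEP1 stood at 1.73 and 1.39. Counting OSH1 and LAX2 too, an alternative chosen after seeing the data, gave 2 members in the anther knockdown comparison, 1 in WT panicle against WT anther, and 1 whose knockdown difference differed between tissues (OSH1, 1.11). The last fell to 0.46 with equal FPKM totals. OSH1 reached 1 FPKM in WT anther only, and 32% of all names passed the threshold for the difference between tissues. With a pseudocount of 0.1 the DEP1 difference was 2.46 in panicle and 2.33 in anther. A smaller pseudocount can only enlarge the difference of 2 columns. Over the alternatives the DEP1 difference ran between 1.67 and 2.46 in panicle and between 1.39 and 2.33 in anther. Equal FPKM totals also moved the share of counted names that were higher to 49.2% (61.6% as deposited) in nrpd1_kd panicle against nrpd1_kd anther, and to 18.6% (64.2%) for the difference between tissues. Subtracting the WT anther share moved it to 69.2% (55.4%) in panicle. For the further list, a pseudocount of 0.1 gave 4 higher and 5 lower in panicle and 4 higher and 6 lower in anther, and subtracting the WT anther share gave 3 higher and 4 lower in panicle. The filter on low values and the leaving out of joined rows cannot alter the values of the members. With 1 value per group and no read numbers, neither replicate spread nor depth can be set beside any of these values.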

Other observations

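The names placed next to DEP1 on chromosome 9 were looked at after the DEP1 values had been seen, 3 on each side. On the lower side Os09g0441600, Os09g0441650 and Os09g0441700 stayed under 1 FPKM in every column. On the upper side Os09g0442100, 5.98 kb away, was at 8.42 FPKM in nrpd1_kd panicle and 28.2 FPKM in WT panicle, a difference of -1.63. In anther Os09g0442100 was at 1.37 FPKM in nrpd1_kd and 13.0 FPKM in WT, a difference of -2.56. It was thus lower in nrpd1_kd in both tissues, where DEP1 was higher in both. Os09g0442300, the next name, differed by -0.47 in panicle and 0.40 in anther. Os09g0442400, 28.2 kb away, was at 0.345 FPKM in nrpd1_kd panicle and 2.48 FPKM in WT panicle, a difference of -1.37, and differed by -0.33 in anther.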
